A study of Mus musculus with 13 samples.

Results

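Bile acid synthesis and conjugation were described through 10 genes in mouse liver: Cyp7a1, Cyp8b1, Cyp27a1, Cyp7b1, Hsd3b7, Akr1d1, Slc27a5, Baat, Nr1h4 and Nr0b2. They were taken as a named list from the 18820 genes that had a feature with exactly 1 gene symbol on the array, and each gene was represented by its feature with the highest mean over the 13 livers. All 10 were measured, and only Hsd3b7 had more than 1 feature (2). Liver RNA of C57BL/6J mice was hybridised to 1 Affymetrix whole-transcript array per mouse, after a morning fast. The 4 groups were wildtype mice aged 3 weeks (n = 3), hepatocyte-specific Sel1L-deficient mice (LiSel1lKO) aged 3 weeks (n = 4), wildtype mice aged 9 weeks (n = 3) and LiSel1lKO mice aged 9 weeks (n = 3). LiSel1lKO mice carry a floxed exon of Sel1l on both alleles and Cre recombinase under the albumin promoter, which acts in hepatocytes and leaves the gene in other liver cells. The labels do not say whether the wildtype mice carry the floxed alleles or Cre, and they give no sex. Sel1L is the partner of the ubiquitin ligase Hrd1 in the degradation of misfolded proteins of the endoplasmic reticulum, and the series' title ties it to FGF21 and to the transcription factor CREBH.

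Hepatocytes turn cholesterol into bile acids along a classic route, which starts with Cyp7a1 in the endoplasmic reticulum, and an alternative route, in which Cyp27a1 in mitochondria oxidises the side chain and Cyp7b1 then hydroxylates the ring. Hsd3b7 and Akr1d1 reshape the ring system, Cyp8b1 sets the share of cholic acid, and Slc27a5 and Baat couple the finished acid to coenzyme A and then to taurine or glycine. Bile acids bind the nuclear receptor FXR, encoded by Nr1h4, which induces Nr0b2; its product, SHP, represses the first enzymes. In mice Cyp7b1 is also known as a gene with higher expression in male than in female liver after puberty.

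The values are RMA expression on the log2 scale, so a difference of 1 is a doubling. Sel1l was lower in each Sel1L-deficient liver (7.10 to 8.42 at 3 weeks, 7.54 to 7.90 at 9 weeks) than in any wild-type liver (8.70 to 8.94), but the differences of -1.21 and -1.02 did not pass over all features (limma adjusted p = 0.391 and 0.109). Whether its feature covers the deleted exon is not given in the sources used here. Fgf21 differed by 0.18 at 3 weeks and 2.96 at 9 weeks (adjusted p = 0.970 and 0.0695). The small 3-week mean difference hid a split around the wild-type livers (7.09 to 7.21). Sel1L-deficient replicates 1 and 2 lay above them (7.96 and 9.30) and replicates 3 and 4 below (6.14 and 5.96). Arrays of 1 group correlated between 0.9828 and 0.9884 over all features. The hepatocyte markers averaged between 12.30 and 12.52 in every liver (9 of 10 measured), and the bile duct markers between 3.39 and 3.83 (5 of 8 measured), close to the array medians of 3.72 to 3.81. At 9 weeks the Sel1L-deficient replicate 1 stood apart: without it the number of features that passed an adjusted p of 0.05 went from 539 to 1178. Without any other 1 of the 9-week livers that number went down, to between 18 and 219. For the 10 genes, the gene lists and the correlations, values without Sel1L-deficient replicate 1 are given below where a call or the reading changed. Those of the lists and correlations were added after the data were seen. For the list genes, values without the other livers are not given, so how far their calls hold without them is not shown.

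At 9 weeks, 2 of the 10 genes passed the test between genotypes, and both were lower in Sel1L-deficient liver: Cyp7b1, of the alternative route, and Slc27a5, of conjugation. Over all 35556 features, 1.52% passed, and 0.484% in that direction. The medians of the 10 differences and of all genes were -0.34 and -0.01 on the log2 scale. Cyp7b1, Slc27a5, Baat and Nr1h4 (4 of 10) were lower without overlap, against 8.52% of all features in that direction. Without Sel1L-deficient replicate 1, 3 of the 10 passed (Nr1h4 besides these), all lower, where 3.31% of all features passed and 1.05% in that direction. With only the 2 groups compared in the fit, no call among the 10 was kept (adjusted p = 0.212 and 0.209 for Cyp7b1 and Slc27a5 at 9 weeks, and 0.0778 to 0.228 for the age differences given below). At 3 weeks none of the 10 passed (0 of 10, also at an unadjusted p under 0.05), as was the case for all features (0%; 7.41% at an unadjusted p under 0.05, and 7.41% without overlap). The 10 differences then lay between 0.02 and 0.49 with a median of 0.23, and the groups overlapped for each gene.

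**Figure D1:**
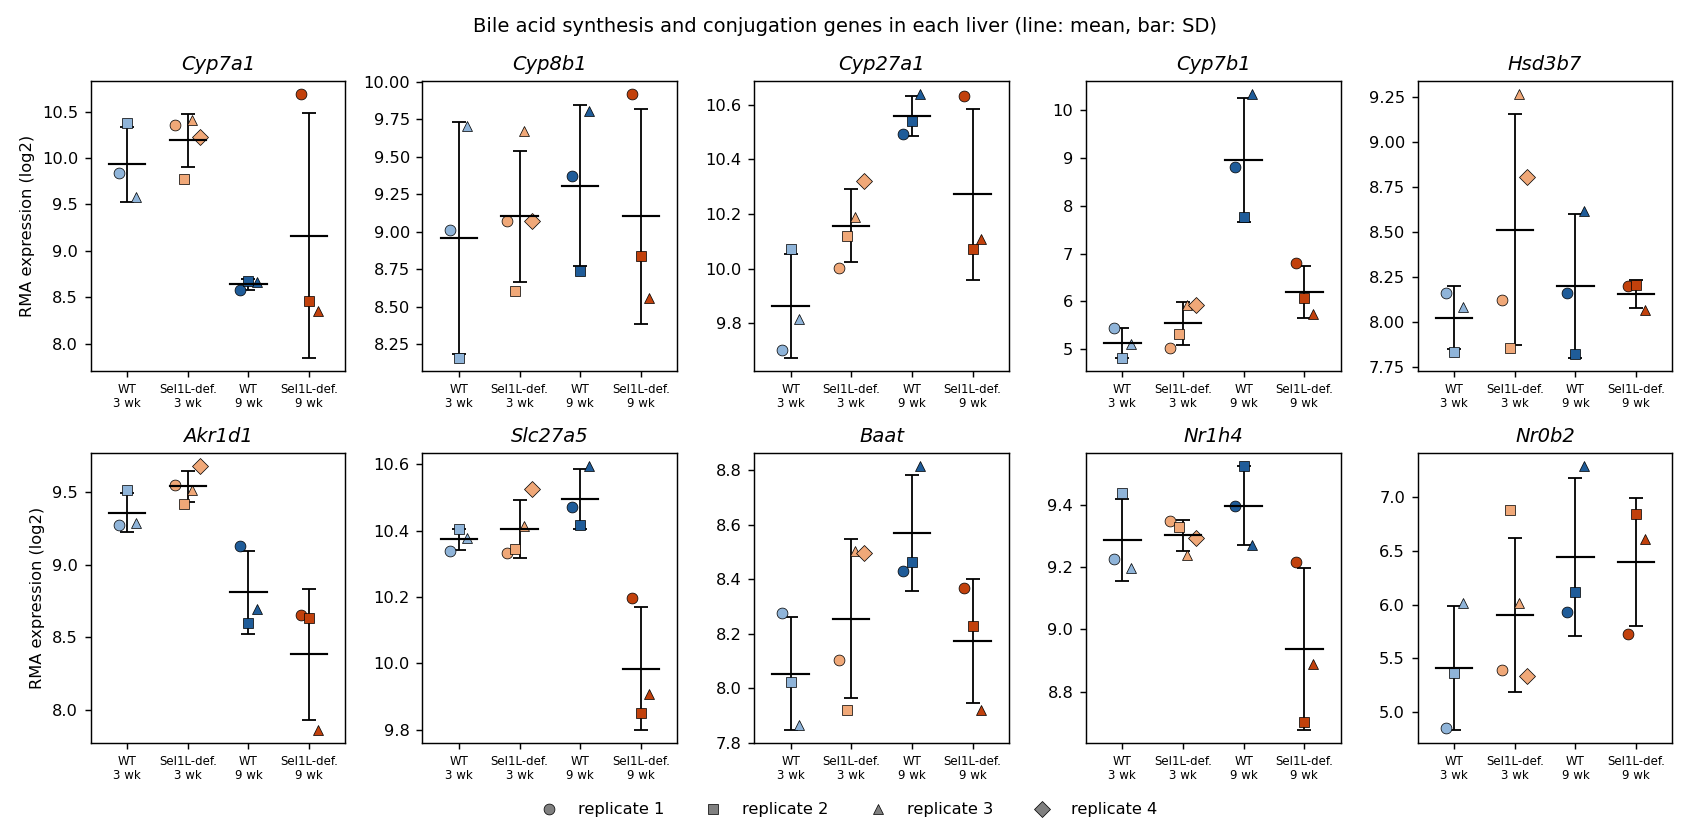
RMA expression (log2, vertical axis; scale differs by panel) of the 10 genes in each of the 13 livers by group; symbols give the replicate number, the line the group mean and the bar the SD. Cyp7b1 lay between 7.76 and 10.33 in 9-week wild-type livers and between 4.83 and 6.81 in all other livers.

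**Figure D2:**
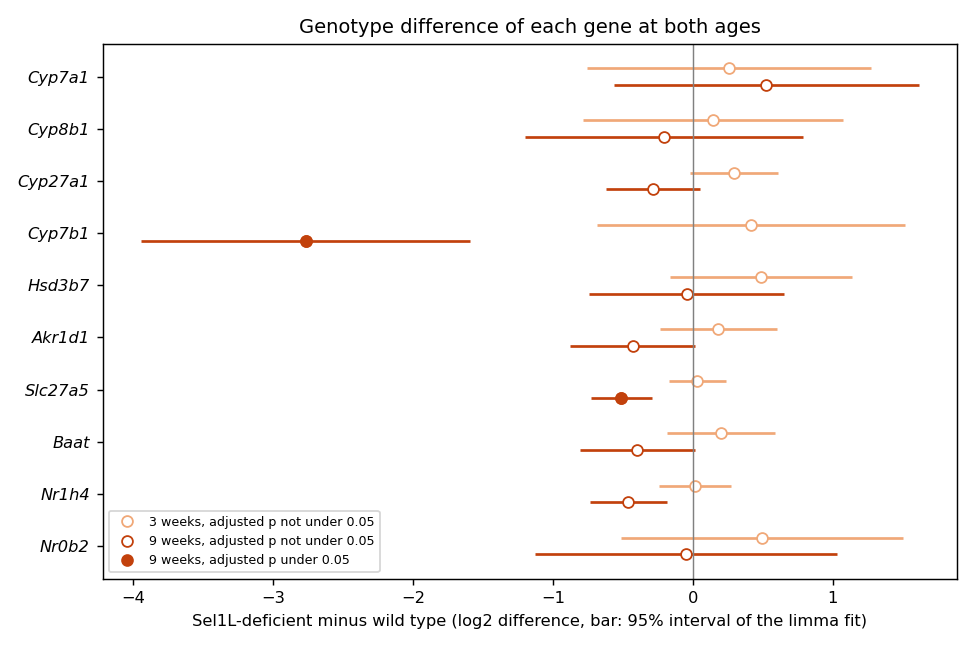
Difference between Sel1L-deficient and wild-type livers (log2, horizontal axis) at 3 weeks (light) and 9 weeks (dark) for each gene, with the 95% interval of the limma fit; filled points passed an adjusted p of 0.05. Cyp7b1 (-2.76) and Slc27a5 (-0.51) at 9 weeks are the 2 filled points.

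RefSeq promoter windows (GRCm38.p6, 250 bases before to 50 after the gene start) were at hand for 6 of the 10 genes: Cyp8b1, Cyp27a1, Hsd3b7, Akr1d1, Nr1h4 and Nr0b2. Both strands were searched for an inverted repeat of AGGTCA spaced by 1 base (the FXR type), CAAGGTCA (a site of LRH-1 type), a direct repeat of AGGTCA spaced by 1 base (the HNF4A type), TTCNNNGAA (a STAT5 type element), TGACGTG (an element of the ER stress and CREB type) and CCAAT. Of 32851 such windows, 0.01%, 1.56%, 0.04%, 8.30%, 2.01% and 37.41% held them in this order; these motifs do not overlap in the windows below. The 3 windows with a match are shown because they belong to a gene that rose with age in wild type (Cyp27a1), to a gene that was above all other livers in 3-week Sel1L-deficient replicates 3 and 4 (Hsd3b7) and to the FXR target (Nr0b2); capitals mark the matches, 5′ to 3′ in the direction of the gene.
Cyp27a1, chr1:74713285-74713584, plus strand: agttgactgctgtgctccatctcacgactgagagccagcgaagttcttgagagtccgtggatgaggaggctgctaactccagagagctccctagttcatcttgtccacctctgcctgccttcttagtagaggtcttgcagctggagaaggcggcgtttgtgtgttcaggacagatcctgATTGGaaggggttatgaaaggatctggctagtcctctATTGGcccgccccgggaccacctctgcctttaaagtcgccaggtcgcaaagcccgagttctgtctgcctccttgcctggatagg
Hsd3b7, chr7:127800359-127800658, plus strand: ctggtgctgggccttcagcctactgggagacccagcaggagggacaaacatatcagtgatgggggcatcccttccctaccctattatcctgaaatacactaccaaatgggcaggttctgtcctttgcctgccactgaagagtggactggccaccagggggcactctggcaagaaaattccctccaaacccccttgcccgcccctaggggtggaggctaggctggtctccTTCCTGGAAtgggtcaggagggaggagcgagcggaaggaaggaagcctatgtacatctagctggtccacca
Nr0b2, chr4:133553126-133553425, plus strand: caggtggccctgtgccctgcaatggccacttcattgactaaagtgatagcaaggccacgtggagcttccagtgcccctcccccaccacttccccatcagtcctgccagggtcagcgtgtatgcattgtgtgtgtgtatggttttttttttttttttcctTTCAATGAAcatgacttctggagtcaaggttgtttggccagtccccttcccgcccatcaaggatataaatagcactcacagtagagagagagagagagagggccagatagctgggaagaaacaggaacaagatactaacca
Counted with the first base of the gene as 0, Cyp27a1 held the reverse complement of CCAAT at -71 to -67 and at -34 to -30. TTCNNNGAA stood at -21 to -13 in Hsd3b7 and at -91 to -83 in Nr0b2. A match is a run of letters and was not tested as a binding site. The windows of Cyp8b1, Akr1d1 and Nr1h4 held 0 matches. Only these exact letters were searched, so a window without a match may still hold a site with other letters.

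Cyp7a1, the rate-limiting enzyme of the classic route, was at 8.57, 8.68 and 8.66 in the 9-week wild-type livers and at 10.69, 8.45 and 8.35 in the Sel1L-deficient livers. Replicate 1 of the latter was the highest of all 13 livers, while the other 2 lay just below the wild-type range. The SD was 0.06 for wild type against 1.32 for Sel1L-deficient liver. The log2 difference of 0.53 ± 0.49 (SE; limma adjusted p = 0.713) became -0.24 without replicate 1. At 3 weeks the values were 9.84, 10.37 and 9.58 in wild type and 10.36, 9.78, 10.41 and 10.22 in Sel1L-deficient liver, and overlapped (difference 0.26 ± 0.46, adjusted p = 0.929). In wild type, Cyp7a1 was lower at 9 than at 3 weeks without overlap, by a difference of -1.30 ± 0.49 that did not pass (adjusted p = 0.266). In Sel1L-deficient liver the age difference was -1.03 ± 0.46 (adjusted p = 0.490). Without replicate 1 at 9 weeks Cyp7a1 fell by 1.79 (adjusted p = 0.0140), but without any other 1 of these livers the fall did not pass (0.481 to 0.883).

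Cyp27a1, the mitochondrial sterol hydroxylase that opens the alternative route, was at 9.70, 10.07 and 9.81 in 3-week wild type and at 10.50, 10.54 and 10.64 at 9 weeks, so the ages did not overlap. It rose 1.62-fold with age in wild type (0.70 ± 0.15, SE; limma adjusted p = 0.0446), 1 of 2 members that rose, where 1.89% of all features passed and 0.765% rose. In Sel1L-deficient livers it was at 10.001, 10.12, 10.19 and 10.32 at 3 weeks and at 10.63, 10.07 and 10.11 at 9 weeks. Replicate 1 at 9 weeks lay at the wild-type level and the other 2 lay within the 3-week range. The genotype difference was 0.29 ± 0.14 at 3 weeks and -0.29 ± 0.15 at 9 weeks (adjusted p = 0.694 and 0.444). The rise in wild type was not called with the array column (a number, 5 or 7, in the array names) as a block (adjusted p = 0.0731) or after a further quantile normalization (0.0525), nor without any 1 of wild-type replicates 1 and 3 at 3 weeks or 1, 2 and 3 at 9 weeks (adjusted p between 0.0886 and 0.153).

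Cyp7b1, the oxysterol hydroxylase that acts after Cyp27a1, had the widest range of the 10 genes. In wild type it was at 5.45, 4.83 and 5.11 at 3 weeks and at 8.81, 7.76 and 10.33 at 9 weeks. In Sel1L-deficient liver it was at 5.02, 5.32, 5.92 and 5.92 at 3 weeks and at 6.81, 6.06 and 5.74 at 9 weeks. All 9-week Sel1L-deficient livers lay below all wild-type livers of their age, and 1 of them (5.74) lay within the 3-week range. At 9 weeks Cyp7b1 fell 6.79-fold in Sel1L-deficient liver, from 8.97 ± 1.30 to 6.20 ± 0.55 (SD, n = 3 each; -2.76 ± 0.54, SE; limma adjusted p = 0.0336). With age it rose 14.3-fold in wild type (3.84 ± 0.54, SE; adjusted p = 0.00541). Both sizes moved with single 9-week wild-type livers: without replicate 3 they were 4.23-fold and 8.89-fold, and without replicate 2 they were 10.3-fold and 21.7-fold. In Sel1L-deficient liver the age difference was 0.66 ± 0.50 and did not pass (adjusted p = 0.753). The difference of the genotype effects between ages was -3.18 ± 0.73 (SE; 95% interval -4.79 to -1.57). It did not pass over all features (adjusted p = 0.244), and neither did any other feature (0% for the interaction, 9.73% at an unadjusted p under 0.05). The 9-week call was lost with the array column as a block (adjusted p = 0.0611), and without wild-type replicate 1 or 3 (0.0922 and 0.0518) or Sel1L-deficient replicate 2 or 3 (0.130 and 0.142). Among arrays of column 5 (of the 9-week livers 1 was wild type and 2 lacked Sel1L) the difference was -1.49, and among those of column 7 (2 and 1) it was -3.51.

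Hsd3b7, the dehydrogenase that acts on the hydroxylated sterols of both routes, was at 8.16, 7.83 and 8.08 in 3-week wild type and at 8.12, 7.86, 9.27 and 8.81 in Sel1L-deficient liver. Replicates 3 and 4 of the latter were above all other livers, and replicates 1 and 2 lay within the wild-type range. The difference was 0.49 ± 0.30 (SE; limma adjusted p = 0.758) and 0.19 ± 0.24 with the second, dimmer feature of the gene (level 4.45 to 5.44 over the livers). At 9 weeks the values ran from 7.82 to 8.62 in wild type and from 8.07 to 8.20 in Sel1L-deficient liver, with a difference of -0.04 ± 0.32 (95% interval -0.74 to 0.65). Akr1d1, the reductase that bends the ring system, was at 9.13, 8.60 and 8.70 in 9-week wild type and at 8.65, 8.63 and 7.86 in Sel1L-deficient liver. Those groups overlapped (-0.43 ± 0.20; adjusted p = 0.385). From 3 weeks (9.55, 9.42, 9.52 and 9.68) to 9 weeks Akr1d1 fell 2.24-fold in Sel1L-deficient liver (-1.16 ± 0.19, SE; adjusted p = 0.0477), where 0.155% of all features passed and 0.0787% fell. In wild type, where the 3-week values were 9.28, 9.52 and 9.29, the age difference was -0.55 ± 0.20 and did not pass (adjusted p = 0.247). The fall in Sel1L-deficient liver was not called with the array column as a block (adjusted p = 0.0806), with median-centred or again quantile-normalized arrays (0.0542 and 0.0572), or without any 1 of these livers (0.0729 to 0.130) except replicate 1 at 9 weeks (0.0295). Cyp8b1, the hydroxylase of cholic acid formation, spread widely within groups, from 8.16 to 9.71 and from 8.60 to 9.67 at 3 weeks and from 8.74 to 9.81 and from 8.56 to 9.92 at 9 weeks, each time wild type first. Its differences were 0.14 ± 0.42 and -0.20 ± 0.45 (SE; adjusted p = 0.958 and 0.900). The 95% intervals were wide, from -0.78 to 1.07 and from -1.20 to 0.79.

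Slc27a5, the bile acid-CoA ligase of the first conjugation step, varied little among wild-type livers, at 10.34, 10.40 and 10.38 at 3 weeks and 10.47, 10.42 and 10.59 at 9 weeks. The Sel1L-deficient livers were at 10.33, 10.35, 10.41 and 10.53 at 3 weeks and at 10.20, 9.85 and 9.91 at 9 weeks. The 3 livers of the last group were lower than the other 10. Slc27a5 fell 1.42-fold at 9 weeks (-0.51 ± 0.10, SE; limma adjusted p = 0.0340), while the 3-week difference was 0.03 ± 0.09 (adjusted p = 0.961). The difference of the 2 effects was -0.54 ± 0.14 (adjusted p = 0.265). The 9-week call was lost with the array column as a block (adjusted p = 0.0566) and without any 1 of the 9-week livers (0.0855 to 0.144) except Sel1L-deficient replicate 1 (0.00548). Within array columns 5 and 7 the difference was -0.37 and -0.68. The hepatocyte markers, 0 of 9 of which passed at 9 weeks, averaged 12.41 to 12.52 in wild type and 12.35 to 12.47 in Sel1L-deficient livers. These averages lie near the highest value of any feature (13.62), and whether the arrays still resolve changes there was not tested. In whole liver, fewer cells of a type and less RNA per cell cannot be told apart.

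Baat, the acyltransferase that attaches taurine, was at 8.43, 8.46 and 8.81 in 9-week wild type and at 8.37, 8.23 and 7.92 in Sel1L-deficient liver. The groups did not overlap, but the difference of -0.40 ± 0.19 (SE) did not pass (limma adjusted p = 0.380). At 3 weeks wild type was at 8.27, 8.02 and 7.86 and Sel1L-deficient liver at 8.10, 7.92, 8.50 and 8.50. Replicates 3 and 4 were again the high ones, above every wild-type liver of their age, and the difference was 0.20 ± 0.17 (adjusted p = 0.832).

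Nr1h4, the gene of FXR, was at 9.40, 9.52 and 9.27 in 9-week wild type and at 9.22, 8.70 and 8.89 in Sel1L-deficient liver. It was lower without overlap by a difference of -0.46 ± 0.12 (SE; limma adjusted p = 0.106). It passed without Sel1L-deficient replicate 1 (-0.60, adjusted p = 0.0148), but not without any other 1 of the 9-week livers (0.12 to 0.336). At 3 weeks the difference was 0.02 ± 0.12 (adjusted p = 0.984). Nr0b2, the FXR target that encodes SHP, was at 5.93, 6.12 and 7.29 in 9-week wild type and at 5.73, 6.85 and 6.62 in Sel1L-deficient liver. At 3 weeks it was at 4.85, 5.37 and 6.01 and at 5.39, 6.88, 6.02 and 5.33. Single livers lay high in several groups, and the groups overlapped at both ages (0.49 ± 0.46 and -0.05 ± 0.49; adjusted p = 0.841 and 0.983). The Sel1L-deficient replicate 1 at 9 weeks, with the highest Cyp7a1, had the lowest Nr0b2 of its group.

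Single Sel1L-deficient livers differed in how many of the 10 genes lay on 1 side of the wild-type mean of their age. At 3 weeks, 9 of 10 lay above it in replicates 3 and 4 each, with median deviations of 0.46 and 0.30, against 7 and 5 of 10 in replicates 1 and 2 (0.08 and 0.01). Replicates 3 and 4 also had the lowest Sel1l (7.20 and 7.10, against 8.42 and 7.90) and differed from replicates 1 and 2 in other lists. Their clock genes averaged 5.69 and 5.97 (6.21 and 6.23 in replicates 1 and 2), their pericentral genes 8.93 and 9.03 (8.73 and 8.71) and their periportal genes 11.34 and 11.49 (11.07 and 10.99). The clock genes went both ways. In replicate 3, Arntl was at 6.52 (5.35 and 5.25 in replicates 1 and 2) and Npas2 at 4.39 (2.62 and 2.52). Per1 and Per2 were lower there, at 5.96 (7.71 and 8.00) and 4.89 (7.20 and 7.08). Over the 13 livers, Hsd3b7 had r = -0.79 with the clock mean within groups, a mean over genes that went opposite ways. The part of these in the high values was not tested. At 9 weeks, 7, 8 and 9 of 10 lay below the mean in replicates 1, 2 and 3 (medians -0.17, -0.41 and -0.55). Wild-type livers themselves had between 2 and 8 of 10 above the mean.

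**Figure D3:**
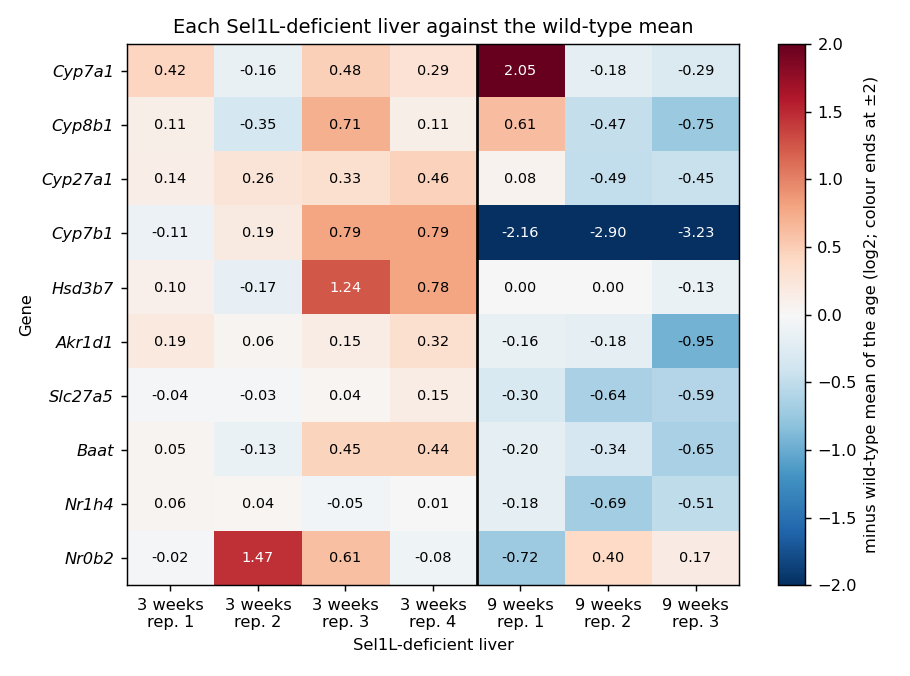
Deviation (log2, colour and number) of each Sel1L-deficient liver (columns) from the wild-type mean of its age for each gene (rows); the colour scale ends at 2 in both directions. Cyp7b1 lay at -2.16, -2.90 and -3.23 in the 9-week livers, and Cyp7a1 at 2.05 in 9-week replicate 1.

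The genes could also be set side by side within groups, through the deviations of the 13 livers from their group means. These correlations are descriptions over 13 livers on the same arrays. Cyp27a1 and Slc27a5 were closest (r = 0.89 within groups, 0.28 over all livers), then Cyp7a1 and Cyp27a1 (0.82 and -0.19) and Hsd3b7 and Baat (0.80 and 0.60). Cyp7a1 and Nr0b2 went in opposite directions (-0.53 and -0.63). Without the 9-week Sel1L-deficient replicate 1, the values within groups were 0.74, 0.46, 0.83 and -0.44 in this order, so that the pair of Cyp7a1 and Cyp27a1 leaned on that liver.

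Cyp7b1 lay along the male-biased liver genes. Of 15 such genes, 8 fell and 0 rose at 9 weeks (median difference -1.76), while 4 of 10 measured female-biased genes rose and 0 fell (median 0.87). Of all features, 0.484% fell and 1.03% rose. In the fit without Sel1L-deficient replicate 1, 1.05% of all features fell and 2.26% rose. There 10 of the male-biased genes fell and 5 of the female-biased genes rose. The smallest p-values among them were those of Ugt2b38 (-1.24 ± 0.18, SE), Cyp2d9 (-2.10 ± 0.31) and Cyp4a12a (-4.14 ± 0.61), and of Hao2 (2.13 ± 0.29), Cyp3a44 (1.05 ± 0.18) and Cyp2b9 (3.23 ± 0.56). Hao2 stood at 2.51 in wild type, below the array medians, and Cyp4a12a, Cyp3a44 and Cyp2b9 have near-identical relatives that can share signal. The mean of the male-biased genes was 8.94, 8.68 and 9.36 in 9-week wild-type livers and 7.90, 6.34 and 6.82 in Sel1L-deficient livers, in which replicate 1 was the highest for Cyp7b1 too. At 3 weeks the mean ran from 5.46 to 6.10 in wild type and from 5.55 to 6.22 in Sel1L-deficient liver, with 0 of 15 genes called. Cyp7b1 followed this mean with r = 0.94 over the 13 livers, which includes the shift between groups, and 0.69 within groups. The value within groups was of like size for Slc27a5 (0.78), Cyp8b1 (0.77) and Cyp7a1 (0.69). Without the 9-week Sel1L-deficient replicate 1 it was 0.70 for Cyp7b1, 0.45 for Slc27a5, 0.66 for Cyp8b1 and -0.05 for Cyp7a1. The part of this list in the Cyp7b1 difference was not tested.

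**Figure D4:**
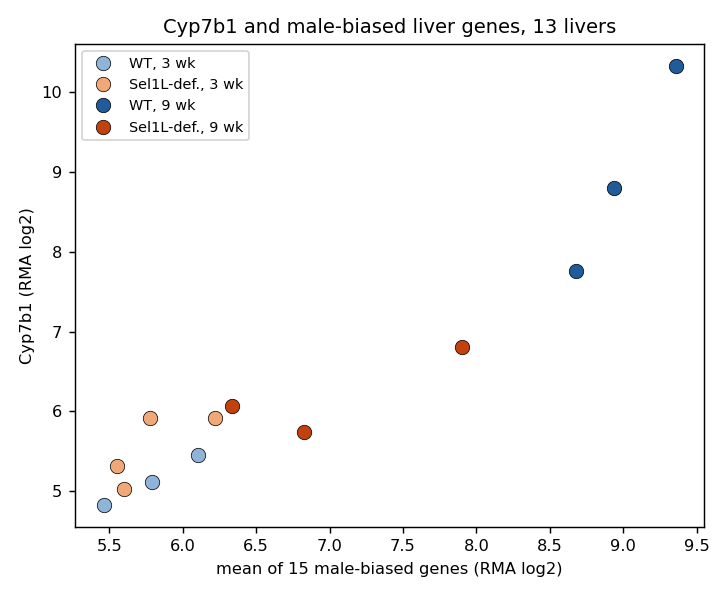
Cyp7b1 (RMA log2, vertical axis) against the mean of 15 male-biased liver genes (RMA log2, horizontal axis) in each of the 13 livers, coloured by group. On the horizontal axis the 9-week Sel1L-deficient livers (6.34 to 7.90) lie between the 3-week livers (5.46 to 6.22) and the 9-week wild-type livers (8.68 to 9.36), and on the vertical axis 1 of them (5.74) lies within the 3-week range.

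The genes whose levels were most like those of single members over the 13 livers were sought among genes with a mean of at least 6 and an SD of at least 0.3 (1155 besides the gene itself, 1156 for Slc27a5). Cyp7a1 was closest to Ces1b, a carboxylesterase (r = 0.927), and to Fdft1, Idi1 and Sqle, enzymes of cholesterol synthesis (0.890, 0.881 and 0.880). Within groups the 4 values were 0.79 to 0.93, and without the 9-week Sel1L-deficient replicate 1 they were 0.34 to 0.46. Each of the 4 was highest in replicate 1 among the 9-week Sel1L-deficient livers; Sqle, for one, was at 8.33 there and at 7.18 and 6.96 in the others. Cyp7b1 was closest to the complement genes C6 (0.944) and C9 (0.922), to Ugt2a3 (0.930), a glucuronosyltransferase, and to Klhl2 (0.928). Within groups these 4 had r between 0.41 and 0.74, so the shift between groups carried part of the likeness. C6, also on the male-biased list, and C9 differed by -1.84 and -1.73 between genotypes at 9 weeks; they were chosen for this pattern, so no test is given. Slc27a5 was closest to Hao1, the peroxisomal glycolate oxidase (0.922), Uroc1, a histidine catabolic enzyme (0.920), Pla1a, a phospholipase (0.897), and Hsd11b1, the cortisone reductase (0.884). Within groups they had 0.57 to 0.75, and -0.27 to 0.67 without the 9-week Sel1L-deficient replicate 1. The 9-week differences of these 4 were -1.22, -0.89, -0.86 and -0.75, again in genes chosen for the pattern. Cyp8b1 was closest to Selenbp2 (0.701), Apon (0.694), Cyp2c50 (0.654) and Mug1 (0.652), and Nr0b2 to Mrpl38 (0.876), Fbf1 (0.816), Rora (0.809) and Arhgap42 (0.795).

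Other genes of the pathway gave few calls between genotypes. Of 8 other measured genes of sterol oxidation and sterol transfer, 0 passed at either age, with medians of -0.18 at 3 weeks and -0.25 at 9 weeks. Cyp39a1, which hydroxylates another oxysterol, was at 8.05, 8.17 and 7.66 in 9-week wild type and at 8.62, 8.76 and 8.50 in Sel1L-deficient liver (0.67 ± 0.21, SE; limma adjusted p = 0.166). It ran opposite to Cyp7b1 with age in wild type, where it fell by 1.60 (adjusted p = 0.00412). Cyp2c70, the muricholic acid enzyme of mice, was at 10.93, 10.88 and 11.04 and at 10.49, 10.52 and 10.65, without overlap (-0.39 ± 0.11; adjusted p = 0.127). Cyp46a1 differed by -0.89 ± 0.20 (adjusted p = 0.0556), at levels of 3.07 to 4.31 around the array medians. Ch25h and Star, also among the 8, averaged 2.23 and 3.91 in 9-week wild type, below and around those medians. Without Sel1L-deficient replicate 1, where 3.31% of all features passed, 1 of these 8 genes did so. It was Fdx1 (-0.71, limma adjusted p = 0.038), the electron donor of mitochondrial P450 enzymes.

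Of 6 measured genes of peroxisomal side chain shortening, 0 passed (medians -0.12 and -0.21). Lower without overlap were 3 at 3 weeks and 4 at 9 weeks. Of all features, 7.41% did not overlap at 3 weeks, in either direction, and 8.52% were lower without overlap at 9 weeks. Scp2, the sterol carrier and thiolase, was at 11.67, 11.78 and 11.90 in wild type and at 11.41, 10.65 and 11.17 in Sel1L-deficient liver (-0.71 ± 0.16, SE; limma adjusted p = 0.0603). It passed without Sel1L-deficient replicate 1 (-0.88; adjusted p = 0.0124). The racemase Amacr differed by -0.35 ± 0.11 at 9 weeks and the transporter Abcd3 by -0.38 ± 0.11 at 3 weeks (adjusted p = 0.174 and 0.477). Of 9 genes of taurine supply, acyl transfer and sulfation 0 passed (medians 0.08 and -0.10). Sult2a8, a bile acid sulfotransferase, was at 10.24, 10.06 and 10.44 in 9-week wild type and at 9.59, 9.08 and 9.40 in Sel1L-deficient liver (-0.89 ± 0.20; adjusted p = 0.0509), and passed without replicate 1 (-1.01; 0.0324). Slc6a6, the taurine transporter, and Acnat2 differed by -0.56 ± 0.17 and 0.59 ± 0.24 (adjusted p = 0.142 and 0.280).

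Of 13 measured regulators, 0 passed at either age (medians -0.03 and -0.10). Fgfr4, the receptor for FGF15 in hepatocytes, and its co-receptor Klb differed by -0.62 ± 0.19 and 0.36 ± 0.14 at 9 weeks (SE; limma adjusted p = 0.146 and 0.270), and the xenobiotic receptor gene Nr1i2 by -0.48 ± 0.22 at 3 weeks (0.663). Without Sel1L-deficient replicate 1, Fgfr4 passed (-0.85; 0.0139). Hnf4a, which drives several of the 10 genes, differed by -0.07 ± 0.14 and -0.15 ± 0.15. Of 5 genes known to be induced by FXR, 0 passed (medians -0.06 and 0.08), with the export pump Abcb11 at 0.29 ± 0.23 at 3 weeks and Abcb4 and Slc51a at 0.29 ± 0.18 and -0.21 ± 0.15 at 9 weeks (adjusted p = 0.811, 0.535 and 0.600). Slc51a stood below the array medians, at a mean of 2.60 in wild type. Abcb11, Abcb4, Slc51a and Slc51b are counted again among the transporters below, and Mafg was counted among the regulators above. Of 15 transporters, 1 rose and 2 fell at 9 weeks, where 1.03% of all features rose and 0.484% fell. Slco1a4, an uptake carrier, rose by 1.90, and the sterol exporters Abcg5 and Abcg8 fell by 0.86 and 0.73 (adjusted p = 0.0177, 0.0196 and 0.0131). Slc10a1, the main bile acid uptake carrier, was at 11.96, 11.93 and 11.85 in wild type and at 11.74, 11.05 and 11.06 in Sel1L-deficient liver (-0.63 ± 0.16; adjusted p = 0.0761). Slco2b1 and Abcc4 differed by -0.88 ± 0.26 and 0.73 ± 0.25 (0.131 and 0.203). Without Sel1L-deficient replicate 1, 2 transporters rose and 3 fell, where 2.26% of all features rose and 1.05% fell. Slc10a1 (-0.86, limma adjusted p = 0.00144) and Abcc4 (1.05, 0.0140) then passed besides the other 3.

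**Figure D5:**
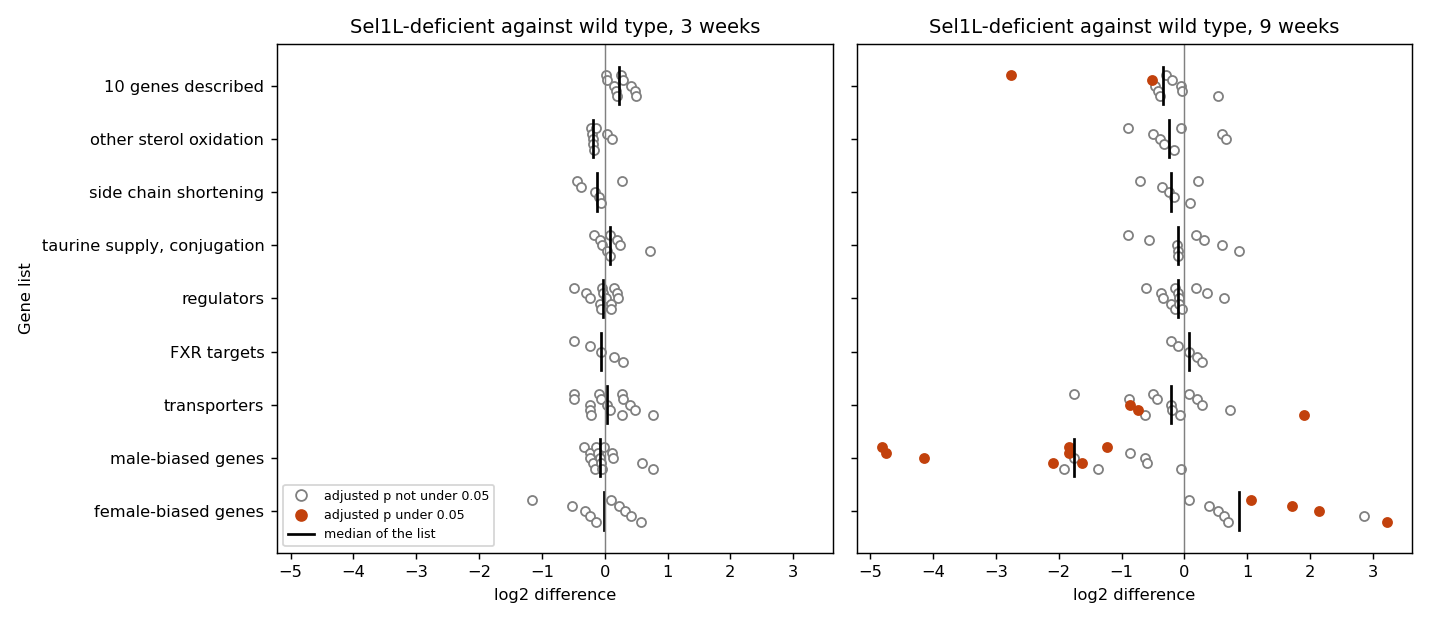
Difference between Sel1L-deficient and wild-type liver (log2, horizontal axis) at 3 weeks (left) and 9 weeks (right) for the 10 genes and 8 further lists; each point is a gene, filled where its adjusted p was under 0.05, and the bar is the median of the list. At 3 weeks no point is filled, and at 9 weeks the filled points lie among the 10 genes, the transporters and the sex-biased genes.

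Zonation and clock genes gave no calls between genotypes (0 of 10 pericentral, 0 of 6 measured periportal and 0 of 13 measured clock genes at either age). The periportal genes averaged 11.38 to 11.58 in 9-week wild type and 10.84 to 11.12 in Sel1L-deficient liver; among them the smallest p-values were those of Cyp2f2 (-0.88 ± 0.22, SE; limma adjusted p = 0.0772), Arg1 (-0.32 ± 0.13; 0.296) and Hal (-1.17 ± 0.48; 0.301). The pericentral genes averaged 8.46 to 8.61 in 3-week wild type and 8.71 to 9.03 in Sel1L-deficient liver, and 8.40 to 8.79 and 8.64 to 8.80 at 9 weeks; Cyp1a2 differed by -0.41 ± 0.14 at 9 weeks (0.194). Hlf, a clock output gene, differed by -0.46 ± 0.18 at 9 weeks (0.274). At 3 weeks the Kupffer cell genes (8 of 8 measured) averaged 7.78 to 7.87 in wild type and 7.25 to 7.60 in Sel1L-deficient liver, and the stellate genes (8 of 8) 7.20 to 7.30 and 6.86 to 7.17, both without overlap. The erythroid genes (4 of 7 measured) averaged 4.61 to 5.37 and 4.11 to 4.62, and the endothelial genes (8 of 8) 8.09 to 8.19 and 7.81 to 8.11. Of these lists 0 genes were called at either age. At 9 weeks the ranges of the Kupffer, stellate and endothelial genes overlapped between genotypes, and those of the erythroid genes did not (4.28 to 4.64 and 3.93 to 4.26). The Kupffer overlap came from Sel1L-deficient replicate 1, at 6.55, below all wild-type livers (7.02 to 7.515). Replicates 2 and 3 lay above them, at 7.73 and 7.72. Replicate 1 also had the highest clock mean of its group (6.21, against 5.98 and 5.998) and the highest Sel1l (7.90, against 7.54 and 7.72). The part of these markers, clock genes and Sel1l levels in the differences of the 10 genes, or in the values of replicate 1, was not tested.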

How the data were processed

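Liver RNA of 13 mice was measured on 1 array each. The authors' deposited values are log2 expression per feature, made by RMA per the submitters' processing notes; software and probe set definition are not given in the sources used here. RMA quantile-normalizes probes, so a shift shared by most genes is largely removed. Of 35556 features (0.405 to 13.62), 21218 had 1 gene symbol in the platform annotation, 1881 several, and 12457 were not listed. No detection calls were used, so differences at levels near the array medians may be understated. The number of arrays limits the precision.

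Groups came from the sample titles. Array names hold a number, 5 or 7, called the array column here; its nature is not stated, and every group had livers in both. Limma 3.58.1 (R 4.3.3) fitted 1 mean per group over the 13 livers, with moderated two-sided tests. Adjustment was by Benjamini-Hochberg across the 35556 features, with 0.05 as the threshold for a call. The contrasts were genotype at each age, the difference of these (interaction) and age in each genotype. The fit was tested on simulated data. Alternatives were array column or replicate number as a block, other features, filters, scalings, variance models and array weights, a fit of the compared groups alone, and each liver left out; values of lists and correlations without the 9-week Sel1L-deficient replicate 1 were added after the data were seen. Litters are not stated, so p-values measure the spread between these mice.

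All 10 genes were named, with called genes of the pathway lists and up to 3 others by smallest p, up to 3 per context list, Sel1l, Fgf21, and the 4 genes most like each of 5 members. Hnf4a, Fdx1, the levels of Ch25h and Star and the age change of Cyp39a1 were added after their values were seen. The members and lists were chosen with earlier results of these data known.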

Additional observations from a re-analysis of the deposited data

Results flagged for a closer look

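Akr1d1 was singled out because its genotype effect pointed in opposite directions at the 2 ages in every liver. All 4 Sel1L-deficient livers lay above the wild-type mean at 3 weeks (by 0.06 to 0.32 on the log2 scale), and all 3 lay below it at 9 weeks (by -0.95 to -0.16). The limma test of this difference, the interaction, gave -0.61 ± 0.28 (SE) and did not pass (adjusted p = 0.515). The genotypes overlapped for Akr1d1 at both ages. An interaction below 0 was not particular to this gene, as 9 of the 10 genes had one, against 50.2% of all genes. In the same test 5 of the 10, Akr1d1 not among them, had an unadjusted p under 0.05, against 9.73% of all features. Within groups of 4 livers, no gene of the 10 had a liver that stood apart by Dixon's test, and groups of 3, such as the one with the high Cyp7a1 value, are not tested.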

How the results depend on the processing

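Calls over all features moved with several settings. At 3 weeks the 0 genotype calls became 2 among features with 1 symbol, and 0 to 1 when single livers were left out. At 9 weeks the 539 calls became 184 with the replicate block, 294 with the array column as a block, 859 among features above the median mean, 1 with only the compared groups and 1106 with array weights, and 18 to 1178 with single livers left out. The 0 interaction calls became 15 among features with 1 symbol and 0 to 36 with single livers left out. The 672 calls for age in wild type became 440 with the replicate block and 255 with only the compared groups, and 296 to 414 with single livers left out. The 55 calls for age in Sel1L-deficient liver became 12 with the replicate block, 18 with the array column, 144 among features with 1 symbol, 109 above the median mean, 35 with median-centred arrays, 9 with only the compared groups and 151 with array weights, and 6 to 210 with single livers left out. Where features were dropped, fewer were tested; otherwise the cause was not tested.

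The titles do not say whether equal replicate numbers pair the livers. The array names of both 9-week livers titled replicate 3 carry the number 4, and blocks by that number were not fitted. Deviations of same-numbered livers correlated between -0.013 and 0.077 (18 pairs), those of others between -0.085 and 0.059 (45 pairs). With the replicate block Cyp7b1 and Slc27a5 at 9 weeks had a limma adjusted p of 0.0685 and 0.0825, and Cyp27a1 and Akr1d1 with age 0.112 and 0.178.

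Signs turned for differences that had not passed. Slc27a5 at 3 weeks was -0.01 with the replicate block, Hsd3b7 at 9 weeks 0.02 and Cyp8b1 with age in Sel1L-deficient liver 0.00 with the array column. Median-centring gave -0.01 for Nr1h4 at 3 weeks and 0.01 for that Cyp8b1 difference, and a further quantile normalization -0.02 and 0.00. Array weights gave 0.18 for Nr0b2 at 9 weeks and -0.11 for the Cyp7a1 interaction. With single livers left out, ranges that crossed 0 were as follows. For age in Sel1L-deficient liver they were -0.19 to 0.04 for Baat, -0.07 to 0.22 for Cyp27a1 and -0.41 to 0.27 for Cyp8b1. For the 9-week genotype difference they were -0.24 to 0.93 for Cyp7a1, -0.61 to 0.07 for Cyp8b1, -0.24 to 0.17 for Hsd3b7 and -0.31 to 0.37 for Nr0b2. For the interaction they were -0.49 to 0.67 for Cyp7a1 and -0.76 to 0.05 for Cyp8b1. For age in wild type they were -0.05 to 0.72 for Cyp8b1 and -0.03 to 0.37 for Hsd3b7. For the 3-week genotype difference they were -0.26 to 0.52 for Cyp8b1, -0.03 to 0.09 for Nr1h4 and -0.01 to 0.05 for Slc27a5. Of 935 values for the 10 genes under these settings, 36 calls were lost, 5 were gained and 31 signs turned. Only differences called in the main fit could lose a call. The 9-week genotype call was kept in 8 of 15 alternative fits for Cyp7b1 and in 7 of 15 for Slc27a5. The call for age in wild type was kept in 6 of 15 for Cyp27a1 and in 14 of 15 for Cyp7b1. That for age in Sel1L-deficient liver was kept in 5 of 16 for Akr1d1. Values within array columns have no test, and Cyp7a1 at 9 weeks (0.53) was -0.16 within column 7.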
